A study of Homo sapiens and Mus musculus with 56 samples.

Results

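CD14, 7 genes of Toll-like receptor complexes and 2 genes of their signalling arm were followed across 5 leukemia cell models treated with a DOT1L inhibitor, a menin inhibitor or both. The 10 genes were CD14, LY96, TLR4, TLR2, TLR1, TLR5, TLR7, TLR8, MYD88 and IRAK2, taken by symbol from the probe set annotation. They stand on 17 of the human probe sets and were 10 of 19775 human genes with a single-symbol probe set. Their mouse orthologs stand on 15 mouse probe sets and were 10 of 18193 mouse genes. In MOLM-13 cells the combination raised CD14 26.7-fold, TLR8 10.3-fold, TLR4 5.38-fold and TLR2 4.04-fold over DMSO. In the B-precursor line SEM it raised TLR4 7.34-fold and TLR7 3.70-fold on their brightest probe sets, and less on their other probe sets. CD14 and TLR8 stayed below the 40th percentile of every SEM array. The SEM calls were lost when an RNA-degradation measure, which largely coincided with the treatments, was added to the fit. In REH, a B-precursor line without a KMT2A fusion, IRAK2 alone of the tested genes was called higher.

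The study measured 56 expression arrays in 20 groups. RS4;11 and SEM are B-precursor acute lymphoblastic leukemia lines with a KMT2A-AFF1 fusion, REH is a B-precursor line without a KMT2A fusion, and MOLM-13 is an acute myeloid leukemia line with KMT2A-MLLT3. The mouse cells were a primary culture of MLL-AF9 transformed leukemic cells grown with IL-6, IL-3 and stem cell factor, so this model holds a forced fusion in cytokine medium. RS4;11, SEM and REH cells received DMSO, 3 µM EPZ004777, 10 µM MI-2-2 or both for 6 days. MOLM-13 and mouse cells received DMSO, 3 µM EPZ004777, 3 µM MI-2-2 or both for 4 days. Each compound was taken to have the same dose in the combination as on its own. EPZ004777 inhibits DOT1L, the H3K79 methyltransferase, and MI-2-2 inhibits the binding of menin to KMT2A. Every group had 3 arrays except that RS4;11 DMSO, SEM DMSO, SEM MI-2-2 and SEM combination had 2. The design text calls replicates biological. Separate cultures are not otherwise described, so p-values measure the spread between these arrays.

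Toll-like receptors recognise microbial molecules, at the cell surface for TLR1, TLR2, TLR4 and TLR5 and in endosomes for TLR7 and TLR8. CD14 binds lipopolysaccharide and hands it to TLR4, which works as a complex with LY96 (also called MD-2), while TLR2 pairs with TLR1 to bind bacterial lipopeptides. All of these receptors can signal through the adaptor MYD88, which gathers IRAK kinases, IRAK2 among them, to activate NF-kB. Monocytes and neutrophils carry CD14, TLR2, TLR4 and TLR8, and CD14 is a customary surface marker of monocytes. TLR7 is typical of plasmacytoid dendritic cells and B cells.

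RefSeq promoters on GRCh38.p14 were matched for 7 of the 10 human genes, and the 250 bases before the start were searched on both strands. The 4 receptor genes that rose most in MOLM-13 are shown first, followed by IRAK2. On its brightest probe set IRAK2 was the member with a called rise under the combination in all 5 models. Capitals mark matches to GAGGAA (the core bound by PU.1), TTGCNNCAA or TTGCNNAAT (C/EBP), TGANTCA (AP-1) and GGGCGG (Sp1), each also as its reverse complement. A strict and a loose NF-kB motif and an IRF motif were searched in the same way. The windows lie at chr5:140633176-140633425 on the minus strand for CD14, and on the plus strand at chr9:117704153-117704402 for TLR4, chr4:153684030-153684279 for TLR2, chrX:12906370-12906619 for TLR8 and chr3:10164669-10164918 for IRAK2. Each sequence reads 5′ to 3′ towards the start.
CD14: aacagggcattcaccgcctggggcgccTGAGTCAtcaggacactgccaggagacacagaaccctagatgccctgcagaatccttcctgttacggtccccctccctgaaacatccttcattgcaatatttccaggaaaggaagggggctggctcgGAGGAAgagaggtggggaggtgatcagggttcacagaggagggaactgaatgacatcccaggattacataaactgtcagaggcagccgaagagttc
TLR4: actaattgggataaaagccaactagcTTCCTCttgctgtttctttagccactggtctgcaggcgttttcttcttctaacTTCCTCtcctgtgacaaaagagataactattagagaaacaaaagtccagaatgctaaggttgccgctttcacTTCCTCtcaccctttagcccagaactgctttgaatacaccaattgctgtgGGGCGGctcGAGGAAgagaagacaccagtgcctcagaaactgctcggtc
TLR2: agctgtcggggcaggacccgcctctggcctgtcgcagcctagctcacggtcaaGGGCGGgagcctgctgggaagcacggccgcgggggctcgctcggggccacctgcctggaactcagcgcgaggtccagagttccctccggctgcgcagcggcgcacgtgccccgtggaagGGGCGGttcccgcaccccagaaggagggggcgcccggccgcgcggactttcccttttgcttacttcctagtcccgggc
TLR8: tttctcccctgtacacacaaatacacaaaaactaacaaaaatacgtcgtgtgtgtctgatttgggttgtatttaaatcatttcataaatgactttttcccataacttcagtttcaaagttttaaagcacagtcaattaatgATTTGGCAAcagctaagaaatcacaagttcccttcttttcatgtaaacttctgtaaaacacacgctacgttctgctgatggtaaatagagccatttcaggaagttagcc
IRAK2: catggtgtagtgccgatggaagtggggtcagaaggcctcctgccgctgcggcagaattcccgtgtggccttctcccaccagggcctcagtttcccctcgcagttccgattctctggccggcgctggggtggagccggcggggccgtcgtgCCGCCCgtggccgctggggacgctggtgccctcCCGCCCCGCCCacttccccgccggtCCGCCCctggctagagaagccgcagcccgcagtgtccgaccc
The TLR4 window held 4 GAGGAA matches, 3 of them as TTCCTC, and 1 Sp1 match. The CD14 window held 1 GAGGAA match, 96 to 91 bases before the start, and 1 AP-1 match. TLR2 held 2 Sp1 matches, TLR8 held 1 match to the second C/EBP pattern as ATTTGGCAA, and IRAK2 held 4 Sp1 matches as CCGCCC, of which 2 overlap. Over 27305 RefSeq promoters, windows of the same length held GAGGAA in 23.4%, Sp1 in 42.3%, AP-1 in 6.6%, the second C/EBP pattern in 2.45% and the first in 1.66%. The shares were 0.546% and 1.73% for the strict and loose NF-kB motifs and 3.07% for the IRF motif. The MYD88 window held 1 GAGGAA, 4 Sp1 and 1 IRF match, and the TLR5 window held 2 Sp1 matches. A match describes letters and is not a measured binding site.

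Values are the authors' log2 RMA signals, which are relative within a probe set and are not compared between genes. A gene was tested where its brightest probe set exceeded the 40th percentile of its array on 2 or more arrays of a model, and "called" means a limma adjusted p under 0.05 over all genes tested. Changes are given as log2 differences ± standard error. CD14, TLR5 and TLR8 were not tested in RS4;11, SEM and REH, where they never passed that percentile, TLR5 was not tested in MOLM-13 and Tlr8 was not tested in the mouse cells. That left 7, 7, 7, 9 and 9 tested members in RS4;11, SEM, REH, MOLM-13 and mouse cells. The B-precursor marker genes passed the percentile on all arrays for 7 of 7 genes in RS4;11 and SEM and 6 of 7 in REH, and the myeloid progenitor markers for 7 of 7 in both myeloid models. In the mouse combination group the RNA-degradation probes stood apart, with an actin 3′ minus 5′ log2 difference from 0.478 to 1.99 against at most 0.628 on the other mouse arrays. In bulk RNA, more cells of a type and more RNA per cell cannot be told apart.

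Between the human lines in DMSO, 7 of 9 tested members differed for RS4;11 against SEM, where 34.3% of all genes did, and for the other pairs the share of members lay near that of all genes. CD14 averaged 5.49 ± 0.02 (SD, n = 3) in MOLM-13, where 2 of 3 arrays passed the percentile, and 3.80 to 3.84 in the 3 B-precursor lines, where none did. TLR8 averaged 6.16 ± 0.28 (SD, n = 3) in MOLM-13 and 3.21 to 3.31 in the others. Of the 4 human lines in DMSO, MOLM-13 was the one in which these receptors passed the percentile. TLR4 ran from 9.80 ± 0.05 in MOLM-13 (SD, n = 3) through 7.70 ± 0.29 in RS4;11 (n = 2) and 6.70 ± 0.44 in SEM (n = 2) to 5.94 ± 0.23 in REH (n = 3), and each neighbouring pair in that order differed. TLR2 was highest in MOLM-13 at 8.88 ± 0.15 (SD, n = 3). SEM and REH, next in that order, did not differ beyond their spread for TLR2 (0.13 log2, adjusted p = 0.450), and RS4;11 was lowest at 5.33.

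TLR7 separated the 2 KMT2A-AFF1 lines. Its DMSO level was 9.76 ± 0.06 in RS4;11 (SD, n = 2), 7.61 ± 0.25 in MOLM-13 (n = 3), 6.67 ± 0.23 in SEM (n = 2) and 4.66 ± 0.56 in REH (n = 3). RS4;11 exceeded SEM by 3.10 ± 0.26 log2 units, and SEM and MOLM-13 were not called different after each array was centred on its median (-0.36, adjusted p = 0.157). IRAK2 was highest in SEM at 10.24 ± 0.06 (SD, n = 2), followed by RS4;11 at 9.45, MOLM-13 at 8.86 and REH at 7.44. With the mean of probe sets RS4;11 and MOLM-13 did not differ in IRAK2 (-0.11, adjusted p = 0.135). LY96 was alike in REH (10.92) and RS4;11 (10.90), with a difference of -0.02 and an adjusted p of 0.874, and lower in MOLM-13 (9.63) and SEM (9.30). MYD88 was lowest in REH at 9.35, and TLR1 was lowest in MOLM-13 at 8.42.

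Beside the 7 of 9 members for RS4;11 against SEM, the count in the fit of the human lines was 6 of 9 for RS4;11 against REH (55.8% of all genes), 5 for SEM against REH (56.0%), 8 for RS4;11 against MOLM-13 (85.4%), 9 for SEM against MOLM-13 (86.3%) and 9 for REH against MOLM-13 (87.4%). The comparisons with MOLM-13 stand on array sets that differ in scale. The median difference over all genes was -0.67, -0.73 and -0.67 log2 units in RS4;11, SEM and REH minus MOLM-13. LY96 and MYD88 in SEM differed from MOLM-13 by -0.33 and -0.31, less than that shift. After centring each array on its median the differences were 0.26 and 0.27 the other way. MOLM-13 also had 4 days in DMSO against 6, so line and time cannot be told apart.

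**Figure D1:**
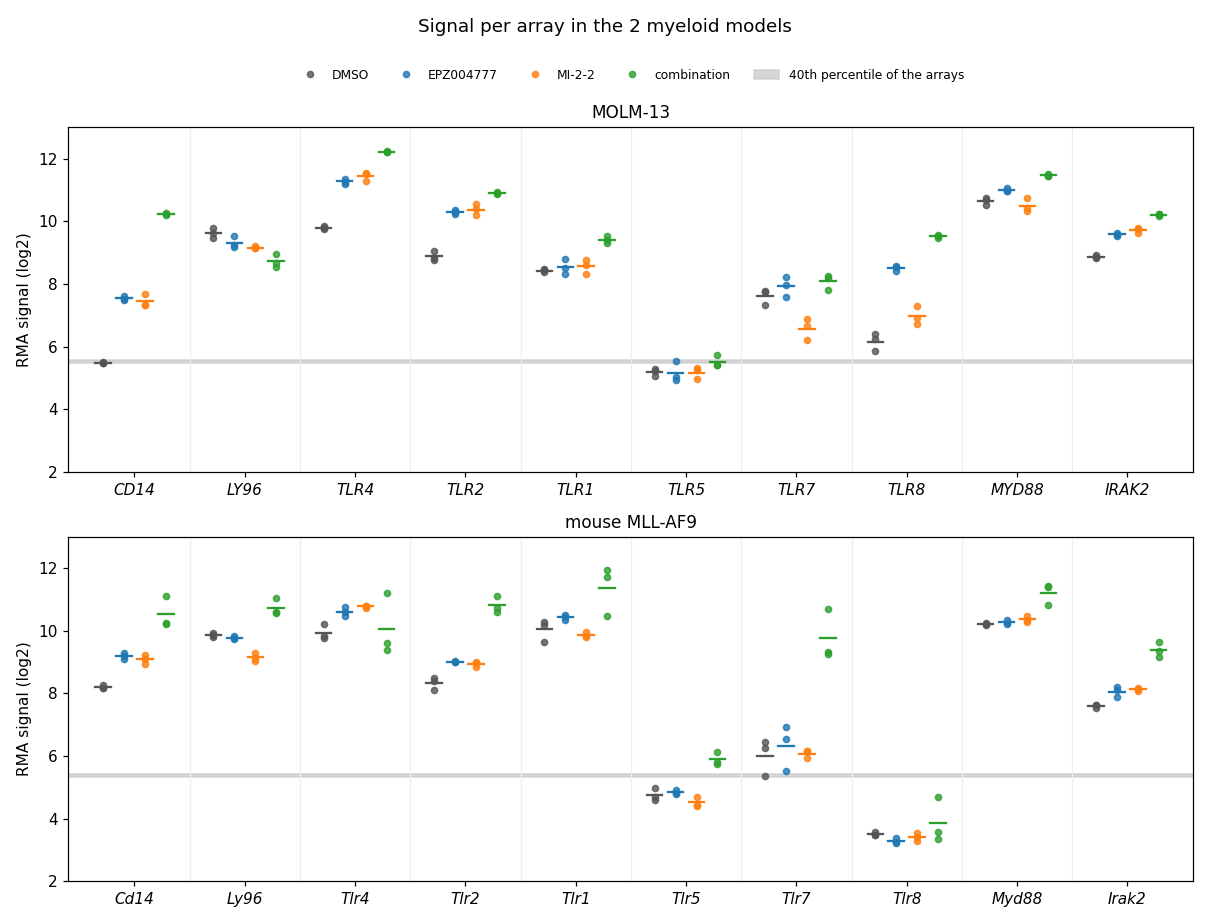
Log2 RMA signal of the members on every array of MOLM-13 and of the mouse MLL-AF9 cells; each point is an array, the short bar is the group mean, colours are the treatments and the grey band spans the 40th percentiles of the arrays. MOLM-13 CD14 steps from about the percentile in DMSO to values above 10 on all 3 combination arrays, and mouse Tlr4, Tlr1 and Tlr7 show the widest spread among combination arrays.

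In MOLM-13 the lipopolysaccharide receptors rose with each compound and furthest with both. CD14 read 5.48, 5.47 and 5.51 in DMSO, 7.50, 7.52 and 7.61 with EPZ004777, 7.33, 7.34 and 7.69 with MI-2-2, and 10.19, 10.27 and 10.23 with the combination. All 9 treated arrays stood above all DMSO arrays, and the combination arrays above every single-compound array. EPZ004777 raised CD14 by 2.05 ± 0.09 (adjusted p = 6.80e-08), MI-2-2 by 1.96 ± 0.09 (1.97e-07) and the combination by 4.74 ± 0.09 (5.72e-11). Because DMSO arrays sat at the filter level, the 26.7-fold rise is read against a dim signal.

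TLR4, the signalling receptor for lipopolysaccharide, read 9.85, 9.76 and 9.78 in DMSO, 11.20, 11.25 and 11.35 with EPZ004777, 11.52, 11.29 and 11.51 with MI-2-2, and 12.20, 12.21 and 12.26 with the combination. The 3 levels of DMSO, single compound and combination did not overlap. Its rise was 1.47 ± 0.07, 1.64 ± 0.07 and 2.43 ± 0.07 in turn. The probe set used can bind more than 1 transcript, but the other 3 TLR4 probe sets rose by 2.03, 2.63 and 2.77 with the combination. LY96, the partner that TLR4 needs for lipopolysaccharide, moved the other way. It read 9.47, 9.62 and 9.79 in DMSO, 9.16, 9.25 and 9.51 with EPZ004777, 9.14, 9.14 and 9.20 with MI-2-2, and 8.67, 8.96 and 8.54 with the combination. LY96 fell by 0.90 ± 0.12 with the combination (adjusted p = 9.33e-05) and by 0.47 ± 0.12 with MI-2-2 (0.0210). Leaving out DMSO replicate 2 (adjusted p = 0.0524), DMSO replicate 3 (0.0824) or MI-2-2 replicate 2 (0.0651) ended the MI-2-2 call, and the EPZ004777 change of -0.32 was not called (0.0731).

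TLR2 read 9.05, 8.83 and 8.76 in DMSO, 10.30, 10.36 and 10.23 with EPZ004777, 10.19, 10.39 and 10.54 with MI-2-2, and 10.94, 10.89 and 10.87 with the combination. It rose by 1.42 ± 0.09, 1.49 ± 0.09 and 2.02 ± 0.09. Its partner TLR1 differed in pattern, with DMSO, EPZ004777 and MI-2-2 arrays overlapping between 8.30 and 8.80 and the combination arrays at 9.39, 9.54 and 9.31. TLR1 rose by 0.99 ± 0.13 with the combination (adjusted p = 9.80e-05) and was not called with either compound (0.550 and 0.514). TLR5, the flagellin receptor, stayed between 4.93 and 5.72 on all 12 arrays, with 1 array above the percentile.

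On the probe sets used, the EPZ004777 and MI-2-2 arrays did not overlap for the endosomal receptors, nor for MYD88 below. The compounds were not tested against each other. TLR8, a sensor of single-stranded RNA, read 6.39, 6.23 and 5.85 in DMSO, 8.40, 8.54 and 8.56 with EPZ004777, 6.72, 6.91 and 7.29 with MI-2-2, and 9.46, 9.53 and 9.56 with the combination. EPZ004777 raised it by 2.35 ± 0.15, MI-2-2 by 0.82 ± 0.15 and the combination by 3.36 ± 0.15. TLR8 was the member for which the EPZ004777 and MI-2-2 arrays stood farthest apart. TLR7, the related RNA sensor, read 7.32, 7.73 and 7.78 in DMSO, 7.97, 7.59 and 8.22 with EPZ004777, 6.21, 6.64 and 6.87 with MI-2-2, and 7.80, 8.19 and 8.25 with the combination. It fell by 1.04 ± 0.21 with MI-2-2 (adjusted p = 0.00601) and its combination change of 0.47 was not called (0.0847). The second TLR7 probe set changed by -0.18 ± 0.17 with MI-2-2 and was not called (adjusted p = 0.595).

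MYD88 read 10.72, 10.52 and 10.69 in DMSO, 10.98, 11.06 and 10.96 with EPZ004777, 10.31, 10.43 and 10.73 with MI-2-2, and 11.43, 11.45 and 11.50 with the combination. It rose by 0.82 ± 0.10 with the combination and by 0.35 ± 0.10 with EPZ004777 (adjusted p = 0.0183), a call lost without EPZ004777 replicate 2 (0.0628) or DMSO replicate 2 (0.0646). MI-2-2 arrays overlapped DMSO. IRAK2 read 8.91, 8.82 and 8.85 in DMSO, 9.63, 9.57 and 9.53 with EPZ004777, 9.62, 9.74 and 9.79 with MI-2-2, and 10.22, 10.15 and 10.23 with the combination. It rose by 0.71 ± 0.05, 0.85 ± 0.05 and 1.34 ± 0.05. Of the other 2 IRAK2 probe sets, the one that passed the percentile on all 12 MOLM-13 arrays rose by 0.35 with EPZ004777 (adjusted p = 0.0492) and was not called with the combination (0.19, adjusted p = 0.22), and the other never passed it.

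In MOLM-13, 6 of 9 tested members were called higher with EPZ004777, where 27.7% of all genes were called and 15.2% were called higher. With MI-2-2, 5 were higher and 2 lower, where 18.5% of all genes were called, 10.2% higher and 8.35% lower. With the combination, 7 were higher and 1 lower, where 48.9% of all genes were called, 23.4% higher and 25.5% lower. The 3 comparisons share the DMSO arrays. The members' median change was 0.71, 0.82 and 1.34, against 0.025, 0.020 and 0.003 for all genes tested. With the combination most monocyte markers rose too. The summed log2 signal of 9 markers ran from 72.70 to 72.97 in DMSO and 79.50 to 80.51 with the combination. Of 7 tested markers 6 were called higher and VCAN lower. FCN1, among the 6, passed the percentile on all arrays of the combination group alone. With EPZ004777 the sum ran from 76.49 to 77.83 and with MI-2-2 from 72.62 to 73.54, overlapping DMSO. MI-2-2 alone moved these markers both ways, with CSF1R and ITGAX called higher and ITGAM and MPEG1 lower. The summed signal of 7 myeloid progenitor markers ran from 80.24 to 81.10 in DMSO, 86.37 to 86.49 with EPZ004777, 82.80 to 84.74 with MI-2-2 and 88.06 to 88.34 with the combination, with 6, 5 and 6 of 7 called higher and none lower. The T cell marker CD3D rose by 1.77 with the combination. The part of these markers in the receptor changes was not tested.

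**Figure D2:**
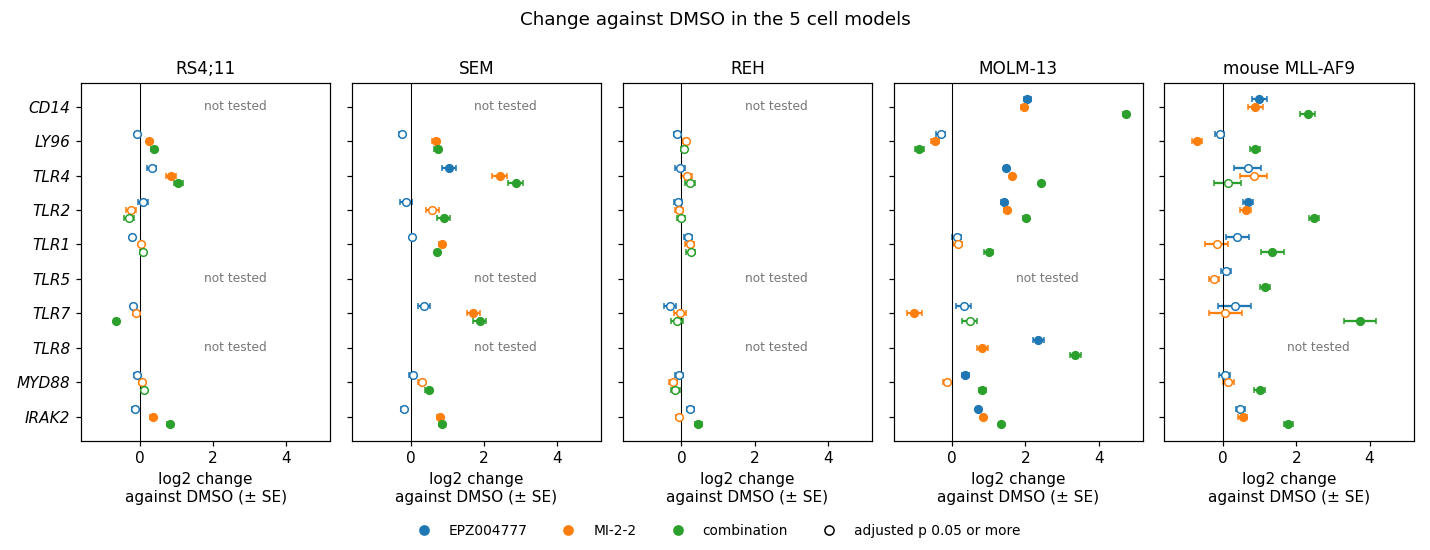
Log2 change of each member against DMSO in the 5 models, one colour per treatment; bars are standard errors, filled points have an adjusted p under 0.05, open points do not, and members below the filter are marked as not tested. IRAK2 is filled under the combination in every model, and LY96 lies below 0 under the combination in MOLM-13 but above 0 in RS4;11, SEM and mouse cells.

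Against each single compound, the combination moved most members further in MOLM-13. Against EPZ004777, 7 members were higher and LY96 lower (33.0% of all genes were called), and against MI-2-2, 8 were higher and LY96 lower (39.2%). The CD14 difference was 2.69 over EPZ004777 and 2.78 over MI-2-2. With the mean of probe sets the IRAK2 differences from EPZ004777 (0.12) and MI-2-2 (0.13) were not called. The LY96 difference from MI-2-2 was lost without combination replicate 3 (adjusted p = 0.0609). The interaction, the departure of the combination from the sum of both single changes on the log2 scale, was called for 6 of 9 members where 12.8% of all genes were called. CD14 exceeded the sum by 0.73 ± 0.12, MYD88 by 0.61 ± 0.14, TLR1 by 0.73 ± 0.19 and TLR7 by 1.19 ± 0.29. TLR4 and TLR2 fell short of it by -0.69 ± 0.10 and -0.89 ± 0.13. The CD14 value rests on DMSO arrays at the filter level. TLR8 and IRAK2 were not called. The TLR1 interaction lost its call without any of 7 single arrays (adjusted p up to 0.0678) and the TLR7 interaction without any of 5 (up to 0.0588). Those arrays were combination 1 and 2, EPZ004777 1 and 2, MI-2-2 replicate 2 and DMSO 2 and 3 for TLR1, and combination 2 and 3, EPZ004777 replicate 2 and DMSO 2 and 3 for TLR7. With the mean of probe sets the TLR7 interaction was 0.63 (adjusted p = 0.0926).

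**Figure D3:**
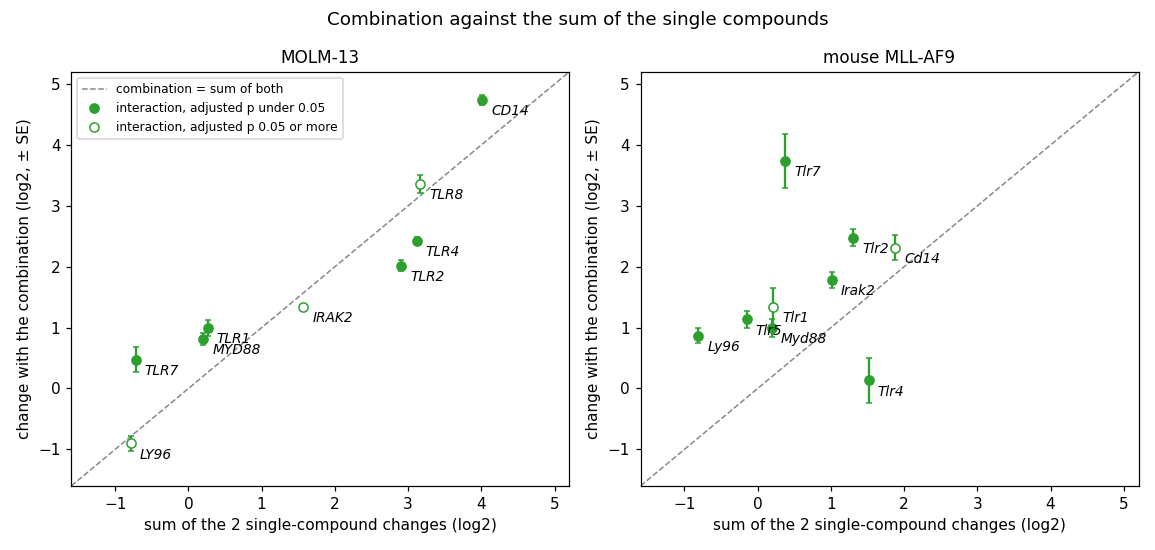
Combination change of each tested member (vertical axis, log2) against the sum of its EPZ004777 and MI-2-2 changes (horizontal axis, log2); the dashed line marks equality and filled points are called interactions. In MOLM-13, CD14 lies above the line and TLR4 and TLR2 below it, and in the mouse cells most filled points lie above it.

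In mouse MLL-AF9 cells Cd14, Tlr2 and most of the other members rose with the combination, single compounds moved Cd14 and Tlr2 less and with calls that hung on single arrays, and Tlr4 differed between its probe sets and between arrays. Cd14 read 8.18, 8.27 and 8.17 in DMSO, 9.10, 9.30 and 9.20 with EPZ004777, 8.95, 9.22 and 9.10 with MI-2-2, and 11.10, 10.24 and 10.22 with the combination. The treated arrays were all above DMSO, and combination replicate 1 was higher than the others. EPZ004777 raised Cd14 by 0.99 ± 0.20 (adjusted p = 0.0138), MI-2-2 by 0.88 ± 0.20 (0.0271) and the combination by 2.31 ± 0.20 (2.54e-06). The Cd14 call with MI-2-2 was lost with a replicate block (adjusted p = 0.0525) and without any 1 DMSO or MI-2-2 array (up to 0.115), and that with EPZ004777 without EPZ004777 replicate 2 (0.0640) or DMSO replicate 3 (0.0574). Tlr2 read 8.48, 8.40 and 8.11 in DMSO, 9.01, 9.03 and 9.01 with EPZ004777, 8.84, 9.02 and 8.97 with MI-2-2, and 11.11, 10.72 and 10.59 with the combination, a rise of 2.48 ± 0.14 under the combination. Single compounds moved Tlr2 by 0.69 and 0.62. Leaving out DMSO replicate 3 or EPZ004777 replicate 1 or 2 ended the first call (adjusted p up to 0.0741), and the second ended without any 1 MI-2-2 array, DMSO replicate 2 or 3 or EPZ004777 replicate 1 (up to 0.133).

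Tlr7 showed the widest change of the mouse members. It read 5.36, 6.25 and 6.43 in DMSO, 6.55, 6.92 and 5.51 with EPZ004777, 6.16, 6.15 and 5.93 with MI-2-2, and 10.68, 9.33 and 9.25 with the combination. Single-compound arrays overlapped DMSO and the combination arrays stood above all others, a rise of 3.74 ± 0.44 (adjusted p = 2.85e-05, 13.3-fold). DMSO replicate 1 lay just below its 40th percentile of 5.379, so the fold is read against a dim signal. The other Tlr7 probe sets passed the percentile on 3 arrays each and rose by 4.78 and 4.59. Ly96 read 9.80, 9.87 and 9.94 in DMSO, 9.77, 9.82 and 9.73 with EPZ004777, 9.12, 9.03 and 9.30 with MI-2-2, and 11.04, 10.61 and 10.55 with the combination. It fell by 0.72 ± 0.13 with MI-2-2 (adjusted p = 0.00788) and rose by 0.87 ± 0.13 with both. This differs in direction from MOLM-13, where the combination lowered LY96, and the difference between species was not tested.

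Tlr4 read 10.22, 9.76 and 9.83 in DMSO, 10.48, 10.60 and 10.75 with EPZ004777, 10.74, 10.79 and 10.80 with MI-2-2, and 11.20, 9.39 and 9.62 with the combination. The combination arrays fell on both sides of DMSO, and the change of 0.13 ± 0.37 was not called (adjusted p = 0.772). Combination replicate 1 had an actin 3′ minus 5′ difference of 0.478, against 1.12 and 1.99 on replicates 2 and 3. With that array as the only combination array, an alternative chosen after the data were seen, the Tlr4 change was 1.26 ± 0.17 (adjusted p = 0.000219). That fit takes its spread from the other groups and assumes that the lone array varies like them. Of the other Tlr4 probe sets, 2 rose by 1.04 (adjusted p = 6.98e-05) and 1.51 (0.00112) with all 3 combination arrays, and the fourth never passed the percentile. Under the same assumption the lone array put Tlr1 at 0.44 (adjusted p = 0.105), against 1.34 ± 0.31 with all arrays, and Cd14 and Tlr7 at 2.89 and 4.67.

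Myd88 read 10.21, 10.26 and 10.20 in DMSO and 10.82, 11.44 and 11.39 with the combination, with the single-compound arrays between 10.22 and 10.48. It rose by 1.00 ± 0.15 with both compounds and was not called with either. Irak2 read 7.52, 7.62 and 7.62 in DMSO, 8.12, 8.19 and 7.87 with EPZ004777, 8.13, 8.07 and 8.18 with MI-2-2, and 9.63, 9.15 and 9.35 with the combination. Both single compounds put all arrays above DMSO, with a call for MI-2-2 (0.54 ± 0.13, adjusted p = 0.0348), not for EPZ004777 (0.0621), and a rise of 1.79 ± 0.13 with both. The MI-2-2 call of Irak2 was lost with a replicate block (adjusted p = 0.0655) and without any 1 DMSO or MI-2-2 array or EPZ004777 replicate 1 (up to 0.145). Tlr5 passed the filter through its combination arrays alone, at 6.12, 5.82 and 5.74 against 4.41 to 4.99 elsewhere, so its call of 1.13 ± 0.14 is a description. Tlr8 stayed between 3.24 and 4.68.

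Of 9 tested mouse members, 2 were higher with EPZ004777, where 5.60% of all genes were called and 4.22% were higher. With MI-2-2, 3 were higher and Ly96 lower, where 5.26% were called, 3.24% higher and 2.02% lower. With the combination 8 were higher, where 64.7% were called and 28.5% were higher. Tlr5 is among the 8 and was tested only through its combination arrays, and without it the count was 7 of 8. The EPZ004777 count fell to 0 without EPZ004777 replicate 2 or DMSO replicate 3, was 1 without EPZ004777 replicate 1 and rose to 4 without combination replicate 1. The MI-2-2 count of 4 was 1 without DMSO replicate 2 or 3 or any 1 MI-2-2 array, and 2 without DMSO replicate 1 or EPZ004777 replicate 1. The combination was called higher than each single compound for 8 of 9 members, or 7 of 8 without Tlr5, with Tlr4 the exception. Of all genes 63.5% and 62.6% were called against EPZ004777 and MI-2-2, 28.6% and 28.9% higher. The call for Tlr1 over EPZ004777 was lost without combination replicate 2 (0.0807) or 3 (0.0882) or EPZ004777 replicate 3 (0.0608). The interaction was called for 7 of 9 members, or 6 of 8 without Tlr5, against 48.2% of all genes. It was 3.36 ± 0.63 for Tlr7, 1.68 for Ly96, 1.18 for Tlr2, 0.80 for Myd88 and 0.78 for Irak2. The GAPDH 3′ minus 5′ difference, a degradation measure, was added as a covariate after the data were seen. With it the Myd88 interaction was 0.38 and not called by limma (adjusted p = 0.0677). For Cd14 the interaction in the main fit was 0.44 and not called (adjusted p = 0.226). The Tlr4 interaction of -1.38 ± 0.52 (adjusted p = 0.0488) lost its call without any 1 array except combination replicate 1, and was -0.25 with that replicate as the only combination array (0.348, under the assumption above). Monocyte markers rose here too: 8 of 10 were called higher with the combination, with summed signals of 74.25 to 84.77 in DMSO and 108.85 to 111.03 with both compounds, and their part was not tested. Mrc1, among the 8, passed the percentile on all arrays of the MI-2-2 and combination groups but not on all DMSO arrays. Other lineage lists moved with the combination as well. Of 7 myeloid progenitor markers 4 were called higher and Cebpa lower. Of 3 tested T and NK markers 2 were higher (Cd3d and Nkg7). Of 3 tested erythroid and megakaryocyte markers 2 were higher (Gp9 and Pf4) and Klf1 lower. The B-precursor markers Cd79b and Vpreb1 were lower.

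**Figure D4:**
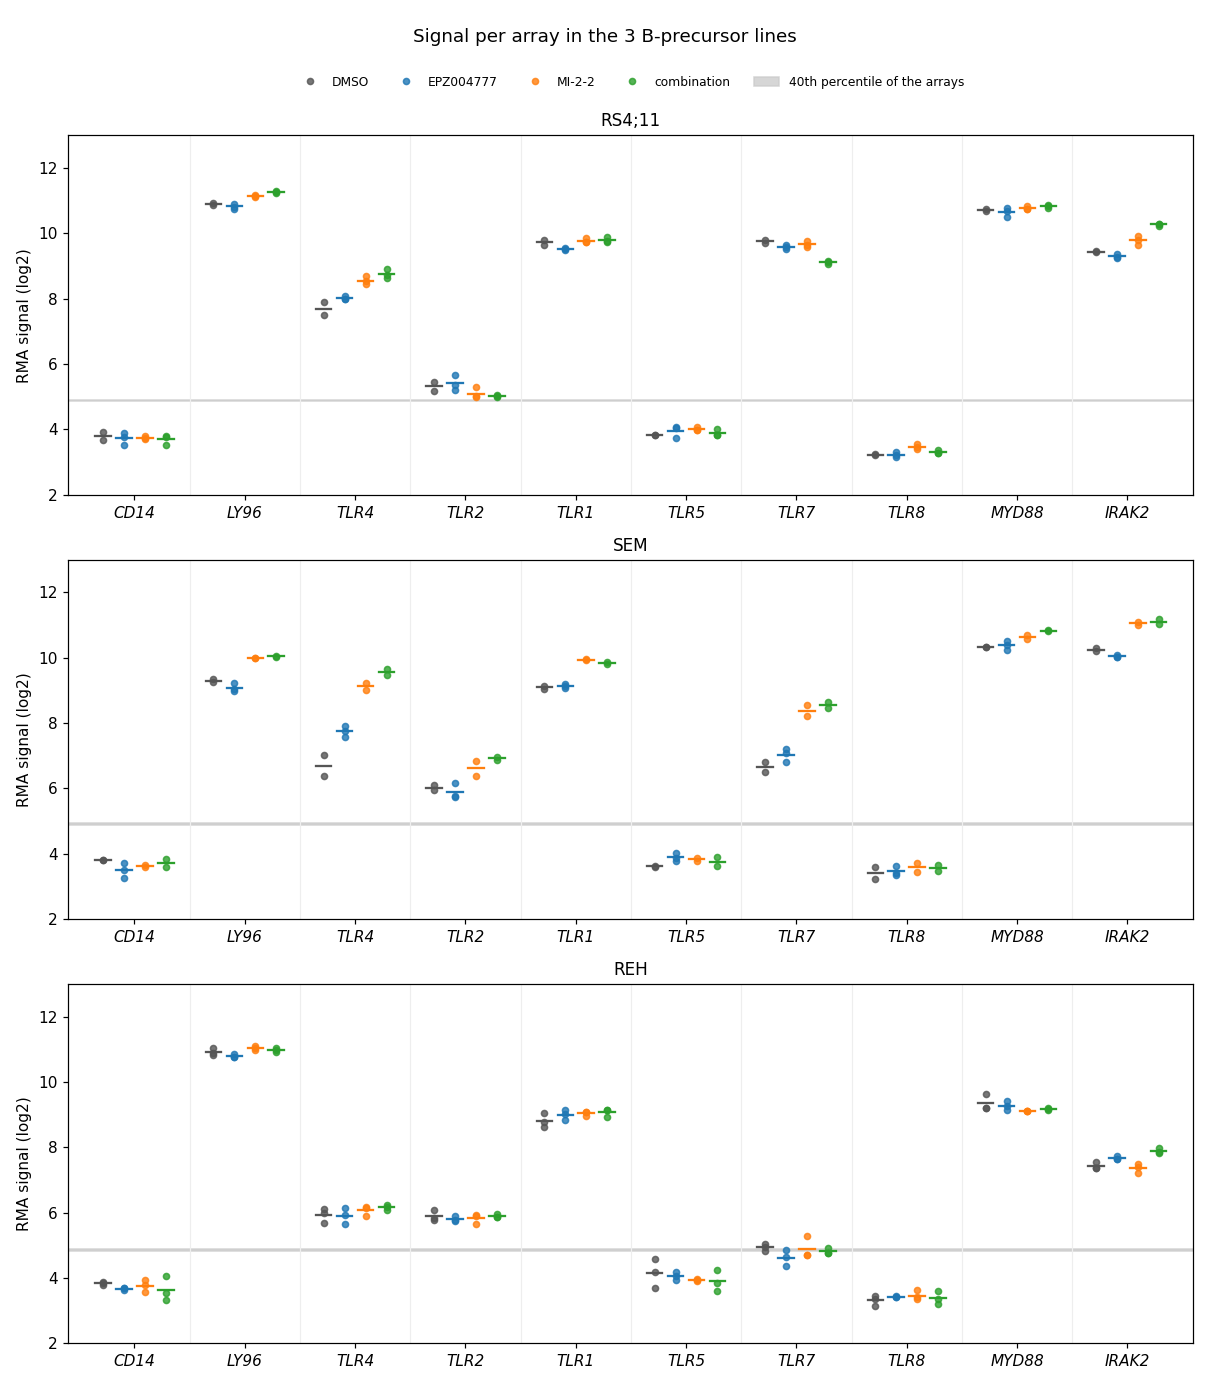
Log2 RMA signal of the members on every array of RS4;11, SEM and REH; points are arrays, short bars group means, colours the treatments and the grey band the 40th percentiles. CD14, TLR5 and TLR8 lie below the band throughout, TLR4 and TLR7 step up in SEM with MI-2-2 and with the combination, and REH shows little separation apart from IRAK2.

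In SEM, MI-2-2 and the combination raised TLR4 and TLR7 with no rise of CD14. TLR4 read 7.01 and 6.39 in DMSO, 7.57, 7.92 and 7.75 with EPZ004777, 9.02 and 9.24 with MI-2-2, and 9.48 and 9.67 with the combination. The 4 groups did not overlap. EPZ004777 raised TLR4 by 1.05 ± 0.18 (adjusted p = 0.0137), MI-2-2 by 2.43 ± 0.20 (0.000223) and the combination by 2.88 ± 0.20 (3.68e-05). The other TLR4 probe sets rose by 1.71, 1.73 and 2.45 with both compounds. With EPZ004777 they changed by 0.42, 0.32 and 0.34 and were not called (adjusted p = 0.203, 0.226 and 0.255). The EPZ004777 call of the brightest probe set was lost without DMSO replicate 3 (0.74, adjusted p = 0.0727).

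TLR7 read 6.50 and 6.83 in DMSO, 7.09, 7.20 and 6.80 with EPZ004777, 8.21 and 8.55 with MI-2-2, and 8.47 and 8.64 with the combination. EPZ004777 overlapped DMSO, and both groups with MI-2-2 lay above. TLR7 rose by 1.71 ± 0.17 and 1.89 ± 0.17, and on its second probe set by 0.96 and 0.95. LY96 read 9.34 and 9.26 in DMSO, 9.03, 8.97 and 9.22 with EPZ004777, 9.98 and 9.99 with MI-2-2, and 10.05 and 10.03 with the combination, a rise of 0.69 ± 0.09 and 0.74 ± 0.09 in the groups with MI-2-2. TLR1 read 9.14 and 9.05 in DMSO, 9.93 and 9.96 with MI-2-2 and 9.86 and 9.80 with the combination, with EPZ004777 arrays between 9.07 and 9.21. It rose by 0.85 ± 0.07 and 0.73 ± 0.07. TLR2 and MYD88 passed the test with the combination only, at 0.90 ± 0.18 and 0.50 ± 0.10, with MI-2-2 changes of 0.59 and 0.30 at adjusted p of 0.0586 and 0.0643.

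IRAK2 in SEM read 10.29 and 10.20 in DMSO, 10.03, 10.04 and 10.08 with EPZ004777, 11.01 and 11.09 with MI-2-2, and 11.02 and 11.18 with the combination. The EPZ004777 arrays lay below DMSO without a call (-0.19, adjusted p = 0.144), and IRAK2 rose by 0.81 ± 0.08 and 0.86 ± 0.08 in the groups with MI-2-2. The other IRAK2 probe sets passed the percentile on 3 and 0 SEM arrays. They changed by 0.11 and -0.21 with MI-2-2 and by 0.04 and -0.15 with the combination, and were not called. In all, 1 of 7 tested members was higher with EPZ004777 (8.78% of all genes called, 4.70% higher), 5 with MI-2-2 (17.8%, 9.30% higher) and 7 with the combination (29.6%, 14.4% higher). All 7 exceeded EPZ004777 alone (26.7% of all genes), from 0.44 for MYD88 to 1.83 for TLR4, and the MYD88 call was lost without combination replicate 3 (adjusted p = 0.0528). By limma none differed between the combination and MI-2-2 (4.81% of all genes; 0 of 7 at an unadjusted p under 0.05), and none showed an interaction (0.969%; 0 of 7 unadjusted).

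An RNA-degradation measure moved with the SEM groups. The actin 3′ minus 5′ difference was 2.32 to 2.48 on DMSO and EPZ004777 arrays and 1.83 to 1.93 on MI-2-2 and combination arrays. With it as a covariate, chosen after the data were seen, 0 of 7 members were called by limma in each comparison with DMSO and in the combination against EPZ004777 (5 of 7 at an unadjusted p under 0.05), with 2, 3 and 4 of 7 unadjusted for EPZ004777, MI-2-2 and the combination. The TLR4 combination value was then 2.03 ± 1.04 (adjusted p = 0.744). In that fit the measure and the treatments largely coincide, and the median standard error over all genes was 0.529 for the combination. Monocyte markers also moved: their summed signal was 43.89 to 43.90 in DMSO, 51.03 to 53.11 with EPZ004777, 59.58 to 60.04 with MI-2-2 and 70.36 to 72.69 with both, and 8 of 9 were called higher with both. In DMSO 5 of the 9 passed the percentile on all arrays (LYZ, ITGAM, CSF1R, MPEG1 and ITGAX), and these 5 are among the 8. VCAN, FCN1 and CD163 passed it on all arrays in treated groups only, so their calls are a description. B-precursor markers stayed above the percentile for 7 of 7 genes in every SEM group, while with the combination EBF1 and PAX5 were called lower (-0.39 and -0.35) and CD79A and CD79B higher (0.88 and 1.02). Of 4 tested myeloid progenitor markers 3 (CEBPA, CSF1R and MPO) were called higher with both compounds, as was NKG7, a marker of T and NK cells (0.87). The part of the markers was not tested.

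RS4;11 shares the fusion of SEM, and its called rises were smaller. TLR4 read 7.91 and 7.50 in DMSO, 8.0, 8.01 and 8.09 with EPZ004777, 8.55, 8.44 and 8.69 with MI-2-2, and 8.64, 8.93 and 8.72 with the combination. All treated arrays stood above DMSO. The rise was called for MI-2-2 (0.86 ± 0.13, adjusted p = 0.00125) and the combination (1.06 ± 0.13, 0.000123), and the other TLR4 probe sets rose by 0.59, 0.73 and 1.32 with both. LY96 read 10.92 and 10.87 in DMSO, 10.82, 10.91 and 10.75 with EPZ004777, 11.12, 11.15 and 11.19 with MI-2-2, and 11.28, 11.30 and 11.24 with the combination, a rise of 0.26 ± 0.07 and 0.38 ± 0.07 in the groups with MI-2-2. IRAK2 read 9.44 and 9.46 in DMSO, 9.26, 9.28 and 9.37 with EPZ004777, 9.66, 9.81 and 9.92 with MI-2-2, and 10.30, 10.30 and 10.22 with the combination. It rose by 0.35 ± 0.08 and 0.83 ± 0.08. With the mean of probe sets the MI-2-2 value was 0.12 (adjusted p = 0.286), since neither other IRAK2 probe set passed the percentile in this line.

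TLR7 ran against SEM. It read 9.81 and 9.72 in DMSO, 9.53, 9.64 and 9.59 with EPZ004777, 9.64, 9.59 and 9.78 with MI-2-2, and 9.13, 9.08 and 9.17 with the combination. The combination arrays lay below all others, a fall of 0.63 ± 0.07 (adjusted p = 0.000115), and the second TLR7 probe set changed by -0.67 ± 0.12. In a fit of all 44 human arrays the adjusted p was 0.0609 and the TLR7 differences from the single compounds were not called. In the joint fit, a comparison added after the data were seen, the TLR7 effect of the combination was lower in RS4;11 than in SEM by 2.52 ± 0.34 (adjusted p = 5.98e-06), with the value -2.52. The effects on TLR4 (-1.82), TLR2 (-1.20), TLR1 (-0.65) and LY96 (-0.36) were lower in RS4;11 too, where 12.9% of all genes differed. TLR2 changed by -0.30 with the combination in RS4;11, which was not called, and by 0.90 in SEM. MYD88 and IRAK2 were not called different (adjusted p = 0.111 and 0.931). With MI-2-2 alone 6 of 7 members differed (6.77% of all genes), and with EPZ004777 none did by limma (1 of 7 at an unadjusted p under 0.05, 3.95% of all genes).

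In RS4;11, 0 of 7 members were called with EPZ004777 by limma, 3 of 7 having an unadjusted p under 0.05 (6.63% of all genes called). Without DMSO replicate 2 that count was 1. With MI-2-2, 3 were higher (12.6% of all genes, 5.91% higher), but 1 without either DMSO array, when the calls of LY96 and IRAK2 were lost. The LY96 call was also lost without any 1 of the MI-2-2 arrays (adjusted p = 0.0501 to 0.0817). With the combination, 3 were higher and TLR7 lower (23.5% of all genes, 11.2% higher and 12.3% lower). Against EPZ004777 the combination was higher for LY96, TLR4, TLR1 and IRAK2 and lower for TLR7 (19.5% of all genes), and against MI-2-2 higher for IRAK2 by 0.48 and lower for TLR7 by -0.54 (10.8%). The interaction was called for IRAK2 alone, at 0.62 ± 0.11 (adjusted p = 0.0168; 1.93% of all genes). That call was lost without DMSO replicate 2 (0.0631), DMSO replicate 3 (0.0818) or EPZ004777 replicate 2 (0.0527), and with the mean of probe sets (0.17, 0.416). Of 5 tested monocyte markers 3 (ITGAM, LYZ and MPEG1) were called higher with MI-2-2, and the summed signal of the list ran from 48.71 to 48.79 in DMSO and 54.74 to 56.25 with both compounds. In the other marker lists CEBPA, HBB, CD79A, CD79B and PAX5 were called higher with both compounds, and DNTT and RAG1 lower. The part of these markers was not tested.

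REH carries no KMT2A fusion and 1 member changed. IRAK2 read 7.38, 7.38 and 7.55 in DMSO, 7.63, 7.75 and 7.64 with EPZ004777, 7.22, 7.40 and 7.48 with MI-2-2, and 7.87, 7.97 and 7.83 with the combination. The combination arrays lay above all others, a rise of 0.46 ± 0.09 (adjusted p = 0.0111). The call was lost without combination replicate 2 (0.0652), and with the mean of all IRAK2 probe sets the value was 0.24 (0.0715). TLR7 was read in REH on its second probe set, the brighter one there. TLR4, at 5.66 to 6.24 over all 12 arrays, and the other tested members overlapped DMSO with the combination. With EPZ004777 and MI-2-2, 0 of 7 members were called by limma (1 and 0 of 7 at an unadjusted p under 0.05), where 4.11% and 1.34% of all genes were. With the combination 1 of 7 was called, where 7.49% of all genes were called and 4.37% higher. Against EPZ004777 the combination differed for 0 of 7 members (1 unadjusted; 0.172% of all genes), and against MI-2-2 for IRAK2 by 0.52 ± 0.09 (2.01%), lost without combination replicate 2 (adjusted p = 0.0728) or MI-2-2 replicate 1 (0.0667). The interaction was called for 0 of 7 members and for 0% of all genes (0 of 7 members and 739 genes at an unadjusted p under 0.05). Actin 3′ minus 5′ differences on the REH DMSO arrays ran from 2.75 to 3.65, against 2.36 to 2.87 on the other REH arrays. Correlations between replicate arrays were 0.982 to 0.9892 in REH DMSO and 0.9946 or more in the other REH groups. All REH comparisons with DMSO share these arrays.

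A joint fit asked whether the mean effect in RS4;11 and SEM differed from that in REH at the same doses and time. The mean joins 2 unlike lines. With MI-2-2 the RS4;11 effect minus the SEM effect was -1.57 for TLR4, -0.43 for LY96 and -0.46 for IRAK2. SEM also carries the actin shift of its MI-2-2 and combination arrays. For TLR4 the KMT2A-AFF1 lines exceeded REH by 0.72 ± 0.19 with EPZ004777 (adjusted p = 0.0227), 1.503 with MI-2-2 (8.08e-06) and 1.74 with the combination (2.93e-07). LY96 differed by 0.35 and 0.49 and MYD88 by 0.40 and 0.47 with MI-2-2 and the combination. MYD88 was not called in RS4;11 with either (0.05 and 0.11), and in REH it changed by -0.225 with MI-2-2, also not called. IRAK2 was lower by -0.41 ± 0.10 with EPZ004777 and higher by 0.65 and 0.39 with MI-2-2 and the combination. TLR7 differed with the combination, by 1.00, a mean of opposite effects in the 2 lines, on a probe set that passed the percentile on 1 of 12 REH arrays. The counts were 2 of 7 with EPZ004777 (5.25% of all genes, 2.49% higher and 2.76% lower), 4 with MI-2-2 (13.6%, 7.91% higher) and 5 with the combination (20.7%, 10.0% higher). The EPZ004777 count was 1 without RS4;11 DMSO replicate 3, SEM DMSO replicate 3 or REH EPZ004777 replicate 3, when the TLR4 call was lost, and 4 without REH DMSO replicate 3. The MYD88 call with MI-2-2 was lost without any of 6 arrays (adjusted p up to 0.0865). These were RS4;11 DMSO replicate 2, SEM DMSO replicate 2, SEM MI-2-2 replicate 3, REH DMSO replicate 3 and REH MI-2-2 replicates 1 and 3. With the mean of probe sets the IRAK2 calls of this comparison were lost.

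The other receptors and helpers of the pathway were read from a list of 13 genes. With the combination, 5 of 11 tested were higher and 1 lower in RS4;11, 6 of 11 higher in SEM, 1 of 11 higher in REH, 7 of 10 higher in MOLM-13, and 5 higher and 3 lower of 12 in mouse cells. The list medians were 0.323, 0.708, 0.189, 0.457 and 0.267, against -0.044, -0.018, -0.005, 0.003 and -0.101 for all genes. In the same order 11.2%, 14.4%, 4.37%, 23.4% and 28.5% of all genes were called higher and 12.3%, 15.2%, 3.12%, 25.5% and 36.2% lower. CD180, a receptor of the same family found on B cells, rose by 3.19 ± 0.12 in SEM, 1.02 ± 0.09 in RS4;11 and 0.87 ± 0.09 in MOLM-13, while mouse Cd180 fell by 1.39 ± 0.32. In SEM, TLR10 rose by 2.25 ± 0.07, TLR6 by 1.16, TLR9 by 1.02 and LY86, the partner of CD180, by 1.04. With the combination LY86 was the 1 list gene called in REH, at 1.02 ± 0.12. In MOLM-13 the scavenger receptor CD36, which works with TLR2, rose by 2.76 ± 0.12. In mouse cells Unc93b1, which carries endosomal receptors to their compartment, rose by 1.77 ± 0.24, Tlr6 by 1.76 and Tlr3 by 1.24. With EPZ004777 alone, 2 of 11 list genes were called higher in REH, CD180 and LY86, where 2.94% of all genes were called higher.

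Among 19 tested adaptors, kinases and ligases per human line, both directions occurred with the combination. In RS4;11 1 was higher and 3 lower, in SEM 3 and 4, in REH 0 and 2, and in MOLM-13 7 and 4. Of all genes 23.5%, 29.6%, 7.49% and 48.9% were called either way in these lines, so the list's counts lay near the background. IRAK3, an inhibitory relative of IRAK2, fell by 1.09 ± 0.11 in RS4;11, 0.69 ± 0.10 in SEM and 0.53 ± 0.10 in REH, whereas mouse Irak3 rose by 2.92 ± 0.22. The ubiquitin ligase PELI1 fell by 1.01 in SEM and 0.67 in RS4;11 and rose by 0.76 in MOLM-13. In MOLM-13 the kinase gene IKBKE rose by 0.69 ± 0.10 and TRAF3 fell by 0.72 ± 0.10. Of 17 tested mouse genes of this list 10 were higher and 1 lower, led by Ikbke at 3.32 ± 0.34, with a list median of 0.625, where 28.5% of all genes were higher and 36.2% lower.

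The NF-kB subunits, inhibitors and induced genes also moved both ways in the human lines. With the combination, 5 of 18 were higher and 3 lower in RS4;11 and in SEM, 1 and 1 of 17 in REH, and 8 and 5 of 19 in MOLM-13. The shares of all genes called either way were 23.5%, 29.6%, 7.49% and 48.9%. NFKBIZ, an inducible NF-kB cofactor, rose by 1.46 ± 0.11 in RS4;11, 2.02 ± 0.13 in SEM and 0.97 ± 0.09 in MOLM-13. The chemokine CXCL8 rose by 2.81 ± 0.11 in SEM and 2.39 ± 0.11 in MOLM-13, and the cytokine IL1B by 2.53 ± 0.15 in MOLM-13 and 0.85 ± 0.12 in REH. TNFAIP3, an inhibitor of the pathway, fell by 1.67 ± 0.10 in SEM. In MOLM-13 PTGS2 and IL10 rose by 1.78 and 1.77. Of 19 mouse genes 14 were higher and 3 lower (28.5% and 36.2% of all genes), with a median of 1.44, and Nfkbiz rose by 4.00 ± 0.22, Il1b by 2.43 ± 0.35 and Ptgs2 by 2.23 ± 0.18. With EPZ004777 alone, 3 of 17 were called higher in REH (CXCL8, IL1B and NFKBIZ), where 2.94% of all genes were called higher.

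Over the 16 human group means, the genes most like a member by Pearson r among 15852 others were named as a description. These means share lines, DMSO arrays and the scale difference of the MOLM-13 arrays. For TLR8 they were QPCT (0.998), SIGLEC16 (0.998) and HP (0.997), and for CD14 they were CEACAM4 (0.994), SERPINA1 (0.989) and FOLR3 (0.989). TLR2 was closest to RARA (0.991), PAPSS1 (0.990) and DNAJC5 (0.988), and TLR4 to LPAR4 (0.977), DBI (0.976) and TPCN1 (0.974). The likeness was lower for TLR7, with ABHD15 at 0.955, for IRAK2, with SLFN12 at 0.963, and for TLR1, with RGS3 at 0.927.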

How the data were processed

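RNA amplified with a Nugen Ovation kit was measured on human and mouse Affymetrix arrays. The deposited log2 values were made by the authors with RMA in affy (R 3.0.2), per the submitters' processing notes. Groups came from the labels. Of 54675 human probe sets 41097 had 1 symbol, 1801 several and 11777 none, and of 45101 mouse probe sets the counts were 34958, 932 and 9211. Human symbols were updated by Entrez identifier. Per gene and model the probe set with the highest mean was used. It was kept where it exceeded the 40th percentile of its array on 2 or more arrays. Each model was fitted on its own with limma 3.58.1 in R 4.3.3 over its 4 groups, with Benjamini-Hochberg adjustment over all genes tested and a threshold of 0.05. DMSO levels were compared in a fit of the 44 human arrays, and RS4;11, SEM and REH effects in a joint fit. The models were tested on simulated data for the combination against DMSO. Planted changes of 0.5 log2 were called in 23.9% (mouse cells) to 68.7% (MOLM-13) of genes. Those of 1 log2 were called in 61.2% (mouse cells) to 95.5% (MOLM-13), so uncalled changes of such sizes can be missed. Text names all 10 members and up to 5 called genes per list with the largest changes. The members and lists were chosen with earlier results of these data known. Alternatives were no filter, repeated quantile normalization, the mean of probe sets, a replicate block, a fit of all human arrays, single arrays left out and, added after seeing the data, degradation covariates. The number of arrays limits precision.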

Additional observations from a re-analysis of the deposited data

Results flagged for a closer look

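The effect of treatment differed between the KMT2A-AFF1 lines and REH, by a test of the difference in a joint limma fit, for these member changes. With EPZ004777 the differences were 0.722 for TLR4 and -0.406 for IRAK2. With MI-2-2 they were 1.503 for TLR4, 0.648 for IRAK2, 0.403 for MYD88 and 0.350 for LY96. With the combination they were 1.737 for TLR4, 0.996 for TLR7, 0.490 for LY96, 0.467 for MYD88 and 0.389 for IRAK2. The TLR7 probe set used there passed the 40th percentile on 1 of 12 REH arrays. RS4;11 and SEM, averaged here, differed from each other for TLR4 and LY96 with MI-2-2 and with the combination. With the mean of probe sets the IRAK2 calls were lost for every treatment. The MYD88 call with MI-2-2 was lost with a replicate block (adjusted p = 0.114) and without some single arrays (up to 0.0865). The TLR4 call with EPZ004777 was also lost without some single arrays (adjusted p up to 0.0826).

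LY96 and TLR7 moved in opposite directions in different models, with every treated array on one side of DMSO in each. For LY96 the combination changes were 0.380 in RS4;11, 0.739 in SEM, 0.869 in mouse cells and -0.903 in MOLM-13. With MI-2-2 they were 0.258 in RS4;11 and 0.685 in SEM, against -0.469 in MOLM-13 and -0.719 in mouse cells. For TLR7 the combination changes were -0.634 in RS4;11, 1.889 in SEM and 3.739 in mouse cells, and the MI-2-2 changes were 1.714 in SEM and -1.036 in MOLM-13. The difference between RS4;11 and SEM was tested and called for TLR7 with the combination. Differences that set the 6-day models against MOLM-13 or mouse cells were not tested, since dose, time or species differ.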

How the results depend on the processing

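Of 173 member calls, 117 kept their direction and side of the threshold under every alternative run and 56 were lost under at least 1. Over pairs of same-numbered arrays, the median correlation of their deviations from the group means was -0.11 to 0.10 by model. Single pairs in REH ran from -0.478 to 0.479, and 9 of 18 mouse pairs exceeded 0.1. A replicate block lost 4 calls and left 2 mouse MI-2-2 member calls in place of 4. The calls lost were LY96 in RS4;11, Cd14 and Irak2 in mouse cells and MYD88 in the KMT2A-AFF1 lines against REH, all with MI-2-2. With the actin covariate 0 SEM members were called against DMSO for each treatment and 0 for the combination against single compounds. With the GAPDH covariate, and without mouse combination arrays 2 and 3, 4 mouse members were called with EPZ004777. The fit of 44 arrays called 1 member in REH with EPZ004777. With the mean of probe sets, 0 members were called in REH with the combination, in REH against single compounds and in the RS4;11 interaction, 1 in RS4;11 with EPZ004777 and 1 in the KMT2A-AFF1 comparison with EPZ004777. The cause was not tested.

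8 values turned direction. Mouse Tlr1 over EPZ004777 was -0.017 with the GAPDH covariate, Tlr4 over EPZ004777 was 0.588 without combination arrays 2 and 3, and Tlr4 over DMSO ranged from -0.432 without combination replicate 1 to 0.471 without replicate 2. IRAK2 in RS4;11 minus MOLM-13 was -0.111 with the mean of probe sets. SEM minus MOLM-13 was 0.257 (median centring) and 0.424 (quantile) for LY96, and 0.272 and 0.485 for MYD88.

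Leaving out 1 array gave member counts from 0 to 1 in REH with the combination and against single compounds, the RS4;11 interaction, RS4;11 with EPZ004777 and SEM with EPZ004777, 1 to 3 in RS4;11 with MI-2-2, 0 to 4 and 1 to 5 in mouse cells with EPZ004777 and MI-2-2, and 1 to 4 in the KMT2A-AFF1 comparison with EPZ004777. Counts over all genes moved by over 1.5 times in several comparisons. REH with MI-2-2 gave 187 genes (19 to 1998), REH with the combination 1045 (476 to 2913), REH with EPZ004777 574 (306 to 1541), mouse with EPZ004777 749 (458 to 1965), mouse with MI-2-2 703 (416 to 1870), and SEM with the combination 4149 and with MI-2-2 2498, down to 14 and 0 with the actin covariate. SEM with EPZ004777 gave 1232 (299 to 1760), and the SEM combination gave 3754 over EPZ004777 (0 to 3949) and 675 over MI-2-2 (246 to 849). RS4;11 gave 923 with EPZ004777 (355 to 1019), 1752 with MI-2-2 (753 to 1882), 3277 with the combination (1803 to 3377) and 1501 for the combination over MI-2-2 (983 to 1477). The REH combination gave 24 over EPZ004777 (0 to 136) and 280 over MI-2-2 (149 to 544). Interactions gave 269 in RS4;11 (109 to 280), 136 in SEM (49 to 287), 0 in REH (0 to 11) and 1816 in MOLM-13 (1185 to 2196). RS4;11 minus SEM in DMSO gave 5432 (3407 to 5855), and the KMT2A-AFF1 lines against REH gave 784 with EPZ004777 (516 to 1885) and 2036 with MI-2-2 (1288 to 3175).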
